A study of Mus musculus with 12 samples.

Results

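The set described here holds building blocks of the nuclear pore and receptors that carry cargo through it: 48 of the 24982 gene symbols listed, matched by symbol (the Nup, Ipo, Xpo and Kpna series, Kpnb1, Ran, Ranbp1, Rangap1, Rcc1, Tpr, Cse1l, Tnpo1 and Tnpo3). By role they were 6 genes of the Y complex, 5 of the inner ring, 5 of the central channel, cytoplasmic face and Nup98, 3 of the nuclear basket, 2 of the membrane ring, 4 of the Ran cycle, 6 importin α adaptors, 10 import receptors of the importin β family and 7 exporters. Polyadenylated RNA was sequenced from B lymphocytes taken from the spleens of mice aged 6 weeks, with 4 libraries, each labelled as a biological replicate, in each of 3 groups. The groups were WT mice (strain given as C57BL/J6), mice carrying the Eμ-Myc transgene, and Eμ-Myc mice that also lacked PRPS2, a phosphoribosyl pyrophosphate synthetase. The Eμ-Myc transgene places Myc under the immunoglobulin heavy chain enhancer, so its expression is directed to the B lineage. The labels do not say in which cells or at what stage Prps2 was deleted, how the B cells were purified, or whether the animals had developed tumours. The study asked which genes the transgene deregulates and whether loss of PRPS2 touches that programme.

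The nuclear pore is a channel through the nuclear envelope in which a ring-shaped scaffold, built from the Y complex and the inner ring, holds flexible nucleoporins that form the permeability barrier. Importins bind cargo in the cytoplasm and release it on meeting GTP-bound Ran in the nucleus, whereas exportins bind cargo together with GTP-bound Ran and release it in the cytoplasm. The direction of transport is set by the placing of the regulators of Ran: Rcc1 loads Ran with GTP on chromatin, and Rangap1 with Ranbp1 triggers hydrolysis outside the nucleus. Growing and dividing cells are known for a high demand on this machinery, because ribosomal proteins, histones and preribosomal particles all cross the pore.

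Promoter windows of 300 bases, from 250 bases before to 50 bases after a RefSeq transcription start (GRCm38.p6), were found for 38 of the 48 genes. They are shown because the transgene encodes a factor whose known binding element is the E-box CACGTG, which reads the same on both strands. The E-box was present in a window of 7 of the 38 genes (18.4%), beside 11.9% of 9807 tested genes and 8.09% of all 27025 genes with a window. Its distance from the start, counted to the first base of the motif, was 118 bases before it in Ran, 66 and 24 before in Nup188, 137 before in Ipo7, 100 before in Nup54, 175 before in Nup93, 231 before in Xpot and 14 after in Ipo4. The window of Ran, the GTPase of the cycle, lies on the plus strand at chr5:129019906-129020205, and that of the inner ring scaffold gene Nup188, the only one of the set with 2 such elements, on the plus strand at chr2:30286166-30286465. The windows of Rcc1 (minus strand, chr4:132345701-132346000) and Kpna2 (minus strand, chr11:106999476-106999775), the genes of the set with the largest increases in Eμ-Myc, hold no CACGTG. The window of Rcc1 lies inside the gene as annotated by GENCODE, whose outermost 5′ end is at chr4:132353605. Its lack of the motif therefore refers to this start only. The windows are written 5′ to 3′ on the gene's strand, with the motif in capitals.
Ran: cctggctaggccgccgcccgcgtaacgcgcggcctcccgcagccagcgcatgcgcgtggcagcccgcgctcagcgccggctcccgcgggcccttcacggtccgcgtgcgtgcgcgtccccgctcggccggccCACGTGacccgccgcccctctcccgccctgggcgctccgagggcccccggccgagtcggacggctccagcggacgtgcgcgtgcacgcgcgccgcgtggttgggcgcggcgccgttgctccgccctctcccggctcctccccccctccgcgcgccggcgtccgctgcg
Nup188: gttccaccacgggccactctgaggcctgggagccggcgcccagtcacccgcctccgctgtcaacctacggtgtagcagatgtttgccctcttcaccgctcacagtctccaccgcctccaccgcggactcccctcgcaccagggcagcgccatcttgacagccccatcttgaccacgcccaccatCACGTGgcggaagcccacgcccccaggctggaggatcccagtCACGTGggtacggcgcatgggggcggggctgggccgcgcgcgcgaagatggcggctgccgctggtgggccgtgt
Rcc1: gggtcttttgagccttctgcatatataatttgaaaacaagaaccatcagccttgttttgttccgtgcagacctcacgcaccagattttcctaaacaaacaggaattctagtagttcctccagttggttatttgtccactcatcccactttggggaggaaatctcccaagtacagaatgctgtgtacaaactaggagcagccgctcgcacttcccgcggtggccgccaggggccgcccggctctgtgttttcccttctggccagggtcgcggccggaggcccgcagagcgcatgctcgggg
Kpna2: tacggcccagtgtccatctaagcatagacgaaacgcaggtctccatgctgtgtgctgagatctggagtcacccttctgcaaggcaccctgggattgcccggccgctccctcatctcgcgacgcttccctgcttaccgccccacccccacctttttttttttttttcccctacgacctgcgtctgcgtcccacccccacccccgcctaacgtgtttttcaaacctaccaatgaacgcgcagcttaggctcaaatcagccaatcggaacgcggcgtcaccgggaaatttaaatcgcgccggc
A match is a description of these letters and not a measured binding site.

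Values are mean coverage per gene, divided by a scaling factor per library (scaled coverage). Summed coverage before scaling ran from 1277305.5 to 1885768.9 per library and read depth is unknown. All 7 B-cell markers examined, among them Cd79a, Ms4a1 and Pax5, were present in each group, with a summed scaled coverage of 5701.5 to 11383 in WT, 6801 to 8440 in Eμ-Myc and 6182 to 6842 in Eμ-Myc; PRPS2 KO. Markers of other cells were present too. The 9 T-cell markers summed to between 463 and 2710 in WT and between 94.2 and 139 in Eμ-Myc. The 6 NK-cell markers summed to between 286 and 1109 in WT and between 75.1 and 182 in Eμ-Myc. The 8 myeloid markers summed to between 7820 and 24418 in WT and between 5644 and 16717 in Eμ-Myc. None of these markers was at 0 throughout, and their part in the results below was not tested. In such bulk samples fewer cells of a type and less RNA per cell cannot be told apart. Prps2 checked the labels: the knockout libraries held a scaled coverage of 16.2 to 18.3, those of WT 97.9 to 140 and those of Eμ-Myc 199 to 287.

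Of the 48 genes, 47 were tested in each comparison, and all 47 had a scaled coverage of at least 1 in all 12 libraries, so that none passed the filter through a single group. Kpna7, an importin α adaptor, was listed at 0 in all 12 libraries, and Nup210l, the paralogue of the membrane ring protein Nup210, was near the filter with values from 1.10 to 2.08. If coverage is read as per base of the gene, levels can be set side by side. The median level of the 48 genes in WT was then 42.7, beside 14.6 over all genes above 0. The highest WT mean belonged to Rangap1 at 283, followed by Nup88 at 223 and Ranbp1 at 193. In Eμ-Myc the order was Ranbp1 at 728, Rangap1 at 648 and Ran at 495, of which the first and second overlapped between libraries. Together the 48 genes took 0.215% to 0.258% of all coverage in the WT libraries and 0.362% to 0.488% in the Eμ-Myc libraries.

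Pore and transport genes were broadly higher in Eμ-Myc than in WT B cells. By limma with Benjamini-Hochberg adjustment over all genes, 34 of the 47 tested genes rose, 1 fell (Kpna4) and 12 did not pass an adjusted p of 0.05. Over all 12723 genes tested, 30.4% rose and 24.7% fell, 55.1% in all. The median log2 fold change was 0.83 for the 47 genes and -0.01 for all genes tested. An increase of at least 1 on the log2 scale was called for 19 of the 47, beside 12.2% of all genes. For 32 of the 47 every Eμ-Myc library lay above every WT library, beside 28.7% of all genes (51.4% with separation in either direction). An unadjusted p under 0.05 was found for 37 of the 47, beside 60.7% of all genes. Each log2 fold change refers to log2(scaled coverage + 0.5), which understates the change of low genes. The same libraries differed in proliferation: the summed scaled coverage of 10 cell-cycle genes was 357 to 483 in WT and 1863 to 2539 in Eμ-Myc, and its part in these differences was not tested.

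The Ran cycle rose as a whole, 4 of 4 genes, with a median log2 fold change of 1.84. Ran, the GTPase itself, had a scaled coverage of 139, 153, 136 and 146 in WT libraries 1 to 4 and of 411, 511, 507 and 552 in Eμ-Myc libraries 1 to 4. The groups were far apart, at a log2 fold change of 1.78 (SE 0.11, adjusted p 3.5e-06, limma). Rcc1, the exchange factor that loads Ran with GTP, stood at 66.9, 71.3, 67.6 and 67.5 in WT and at 279, 303, 369 and 370 in Eμ-Myc. This was the largest increase of the set, 2.25 (SE 0.11, adjusted p 1.7e-06), which placed Rcc1 at rank 325 of the 12723 genes. Ranbp1, which assists the hydrolysis of GTP on Ran, held 192, 208, 168 and 206 in WT against 582, 874, 723 and 734 in Eμ-Myc. Its log2 fold change was 1.90 (SE 0.13, adjusted p 6.2e-06) with no overlap. Rangap1, the GTPase-activating protein, went from 281, 282, 251 and 319 to 564, 634, 703 and 691, a smaller log2 fold change of 1.19 (SE 0.11, adjusted p 2.9e-05).

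**Figure D1:**
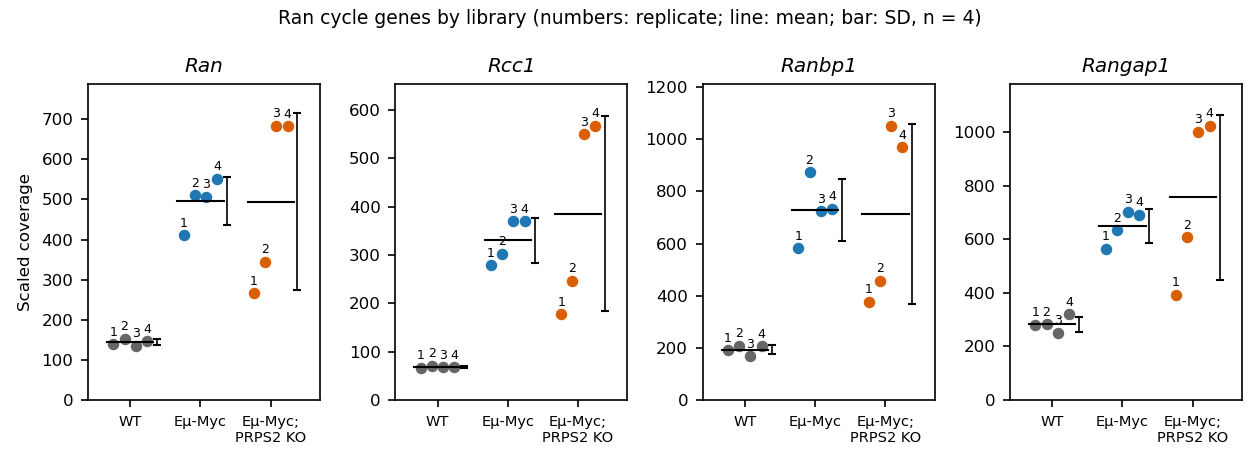
Scaled coverage of the 4 Ran cycle genes (vertical axes, linear and starting at 0) in each library of the 3 groups; points are libraries with their replicate number, the line is the mean and the bar beside it the SD (n = 4). In each panel the 4 Eμ-Myc libraries lie above the 4 WT libraries, and knockout libraries 3 and 4 lie above and library 1 below all Eμ-Myc libraries.

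The scaffold followed. Of the 6 genes of the set in the Y complex, which forms the outer rings, 5 rose, with a median log2 fold change of 1.51. Nup37 changed most, from 30.5, 39.9, 36.0 and 35.8 in WT to 100.1, 133, 159 and 151 in Eμ-Myc, a log2 fold change of 1.90 (SE 0.15, adjusted p 1.3e-05). Nup85 rose by 1.63, Nup43 by 1.60, Nup133 by 1.42 and Nup107 by 1.25 on the log2 scale, each with all Eμ-Myc libraries above all WT libraries. Nup160 was the exception at 0.52 (adjusted p 0.070), with 22.9, 32.8, 33.8 and 26.6 in WT and 45.7, 26.2, 47.8 and 51.6 in Eμ-Myc. Here Eμ-Myc library 2 lay among the WT libraries and the other 3 lay above them. Seh1l (0.72), Sec13 (0.72) and Ahctf1 (0.30, not called), further Y complex genes, lie outside the named series and are counted with the other pore genes. In the inner ring 5 of 5 genes rose, with a median of 1.10. Nup205, one of its largest subunits, went from 19.9, 24.8, 28.1 and 23.5 to 68.7, 45.2, 72.6 and 86.3, a log2 fold change of 1.46 (SE 0.20, adjusted p 0.00023). Nup93, Nup155 and Nup188 followed at 1.20, 1.10 and 0.97. The smallest inner ring increase was that of Nup35, from 11.9, 15.0, 14.4 and 12.7 to 16.9, 25.7, 19.4 and 19.5 (0.56, SE 0.16, adjusted p 0.012). Its call was lost with scaling by total coverage (limma, adjusted p 0.052) and in one fit over all 12 libraries (0.13).

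Of the 5 genes of the central channel, cytoplasmic face and Nup98, 3 rose. Nup62, a channel nucleoporin, went from 35.4, 45.8, 39.7 and 36.3 in WT to 88.4, 90.6, 119 and 107 in Eμ-Myc (1.35, SE 0.13, adjusted p 3.3e-05). Its channel partner Nup54 rose by 0.72 and the cytoplasmic face gene Nup88 by 0.60, while Nup214, also of the cytoplasmic face, reached 0.49 without passing the test (adjusted p 0.060). Nup98, which contributes to the barrier and is found on both faces, held 60.5, 55.2, 76.6 and 60.1 in WT and 73.3, 31.8, 77.3 and 81.9 in Eμ-Myc. Its groups overlapped and the log2 fold change was -0.01 (SE 0.28, adjusted p 0.97), with library 2 of Eμ-Myc the lowest of the 8. In the nuclear basket, 1 of 3 genes rose: Nup50 went from 37.9, 45.0, 43.6 and 41.2 to 64.3, 60.8, 70.7 and 74.7 (0.68, SE 0.10, adjusted p 0.00053). Nup153, which anchors the basket, overlapped between WT (46.4, 47.2, 61.8 and 64.0) and Eμ-Myc (66.1, 35.4, 65.3 and 69.5), at 0.07 (adjusted p 0.79). Tpr, which forms the basket filaments, stood at 0.24 (adjusted p 0.24). Of the membrane ring, Nup210 rose from 65.2, 72.2, 88.0 and 95.4 to 125, 90.0, 126 and 139 (0.58, SE 0.17, adjusted p 0.015). Its value in Eμ-Myc library 2 lay inside the WT range, and its call was lost with scaling by total coverage (limma, adjusted p 0.11). Nup210l overlapped between WT (1.10, 1.22, 1.51 and 1.45) and Eμ-Myc (2.08, 1.36, 1.54 and 1.58) at 0.23 (adjusted p 0.34).

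The importin α adaptors, which bind the classical nuclear localization signal, moved apart from one another. Kpna2 rose from 46.5, 36.7, 37.1 and 29.3 in WT to 153, 152, 194 and 218 in Eμ-Myc, a log2 fold change of 2.25 (SE 0.17, adjusted p 7.9e-06). Kpna4 was the only called decrease of the set, from 122, 104, 106 and 111 to 86.6, 72.1, 85.5 and 88.9 (-0.41, SE 0.10, adjusted p 0.0071), with no overlap between the groups. Kpna3 rose by 0.86, while Kpna1 (0.16) and Kpna6 (0.02) did not pass the test. As a share of the summed Kpna coverage, Kpna2 took 17.9%, 15.1%, 15.0% and 12.9% in WT libraries 1 to 4 and 40.4%, 47.4%, 45.9% and 48.1% in Eμ-Myc. The share of Kpna4 was 47.1%, 43.2%, 42.7% and 49.0% in WT and 22.9%, 22.4%, 20.3% and 19.6% in Eμ-Myc, so that the most abundant adaptor by coverage was Kpna4 in every WT library and Kpna2 in every Eμ-Myc library. In the knockout group it was Kpna4 in library 1 (32.1%, Kpna2 30.9%) and Kpna2 in the other 3. The summed Kpna coverage itself was 227 to 260 in WT and 322 to 453 in Eμ-Myc.

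**Figure D2:**
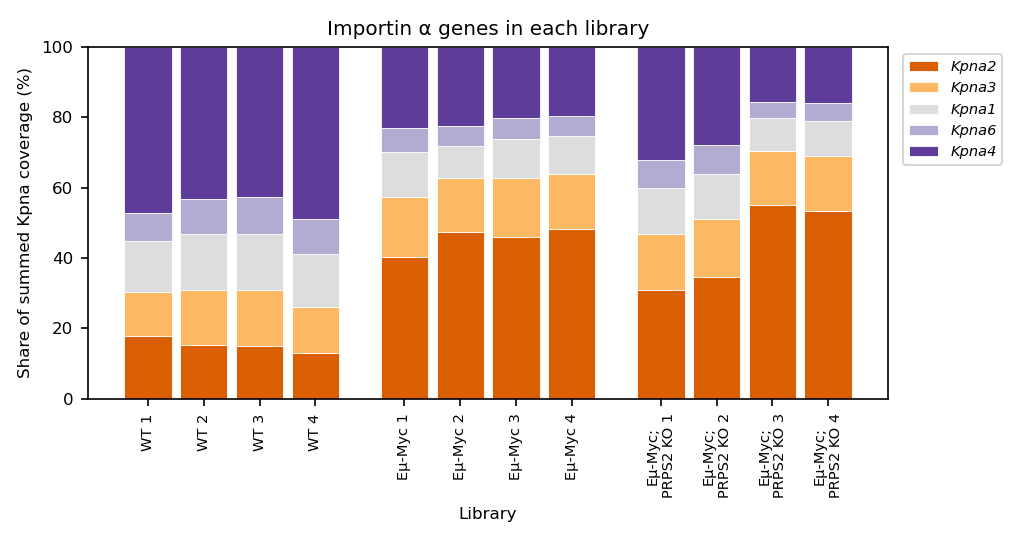
Share of each importin α gene in the summed Kpna coverage (vertical axis, percent) of each of the 12 libraries (horizontal axis); Kpna7, at 0 throughout, is not drawn. Kpna2 takes 12.9% to 17.9% in WT and 40.4% to 48.1% in Eμ-Myc, beside 30.9%, 34.6%, 55.0% and 53.3% in knockout libraries 1 to 4, where Kpna4 takes 32.1%, 27.9%, 15.5% and 15.9%.

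Among the 10 import receptors of the importin β family, 8 rose, with a median log2 fold change of 0.76. Ipo5, an import receptor for ribosomal proteins and histones, led with 104, 114, 122 and 119 in WT and 390, 334, 460 and 496 in Eμ-Myc (1.86, SE 0.13, adjusted p 6.5e-06). Ipo11 rose by 1.10, Ipo7 by 1.09 and Ipo4 by 0.87. Kpnb1, the importin β that pairs with the α adaptors, rose by 0.98 (SE 0.14, adjusted p 0.00031), and its share of the summed coverage of the 10 receptors was 12.9% to 13.5% in WT and 13.1% to 13.6% in Eμ-Myc. The share of Ipo5 was 12.8% to 13.3% in WT and 22.2% to 24.8% in Eμ-Myc. Tnpo3, which imports SR splicing factors, rose by 0.66 and Ipo9 by 0.62. With scaling by total coverage Ipo9 lost its call (limma, adjusted p 0.053). The call of Ipo13, at 0.29, had an adjusted p of 0.048 and was lost in 12 of 17 alternative settings. Ipo8 held 19.1, 25.6, 25.4 and 23.7 in WT and 24.6, 18.7, 25.0 and 25.9 in Eμ-Myc, overlapping at 0.00 (SE 0.15), and Tnpo1, the receptor of many hnRNP proteins, reached 0.45 without passing the test (adjusted p 0.21).

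Of the 7 exporters, 5 rose. Cse1l, which returns importin α to the cytoplasm, went from 50.5, 69.3, 70.5 and 57.3 in WT to 133, 106, 171 and 172 in Eμ-Myc (1.21, SE 0.18, adjusted p 0.00041). Xpot, the tRNA exporter, rose by 1.12, and Xpo1, the general exporter of proteins with a leucine-rich signal and of preribosomal subunits, by 0.83. Xpo7 rose by 0.73, and Xpo5, the exporter of precursor miRNAs, by 0.63 with overlapping groups. The call of Xpo5 was lost with scaling by total coverage (limma, adjusted p 0.099) and in one fit over all 12 libraries (0.059). Xpo6, which exports actin, held 163, 146, 148 and 164 in WT and 171, 139, 154 and 153 in Eμ-Myc, with overlapping groups at -0.01 (SE 0.10, adjusted p 0.93). Its share of the summed exporter coverage was 29.0% to 35.8% in WT and 17.4% to 22.6% in Eμ-Myc, while that of Xpo1 was 30.4% to 32.0% and 33.7% to 35.0%. Xpo4, the lowest exporter, reached 0.81 (SE 0.44, adjusted p 0.14), with 6.04, 6.66, 9.70 and 8.83 in WT and 17.8, 4.64, 21.4 and 19.7 in Eμ-Myc; library 2 lay below all WT libraries and the other 3 above them.

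**Figure D3:**
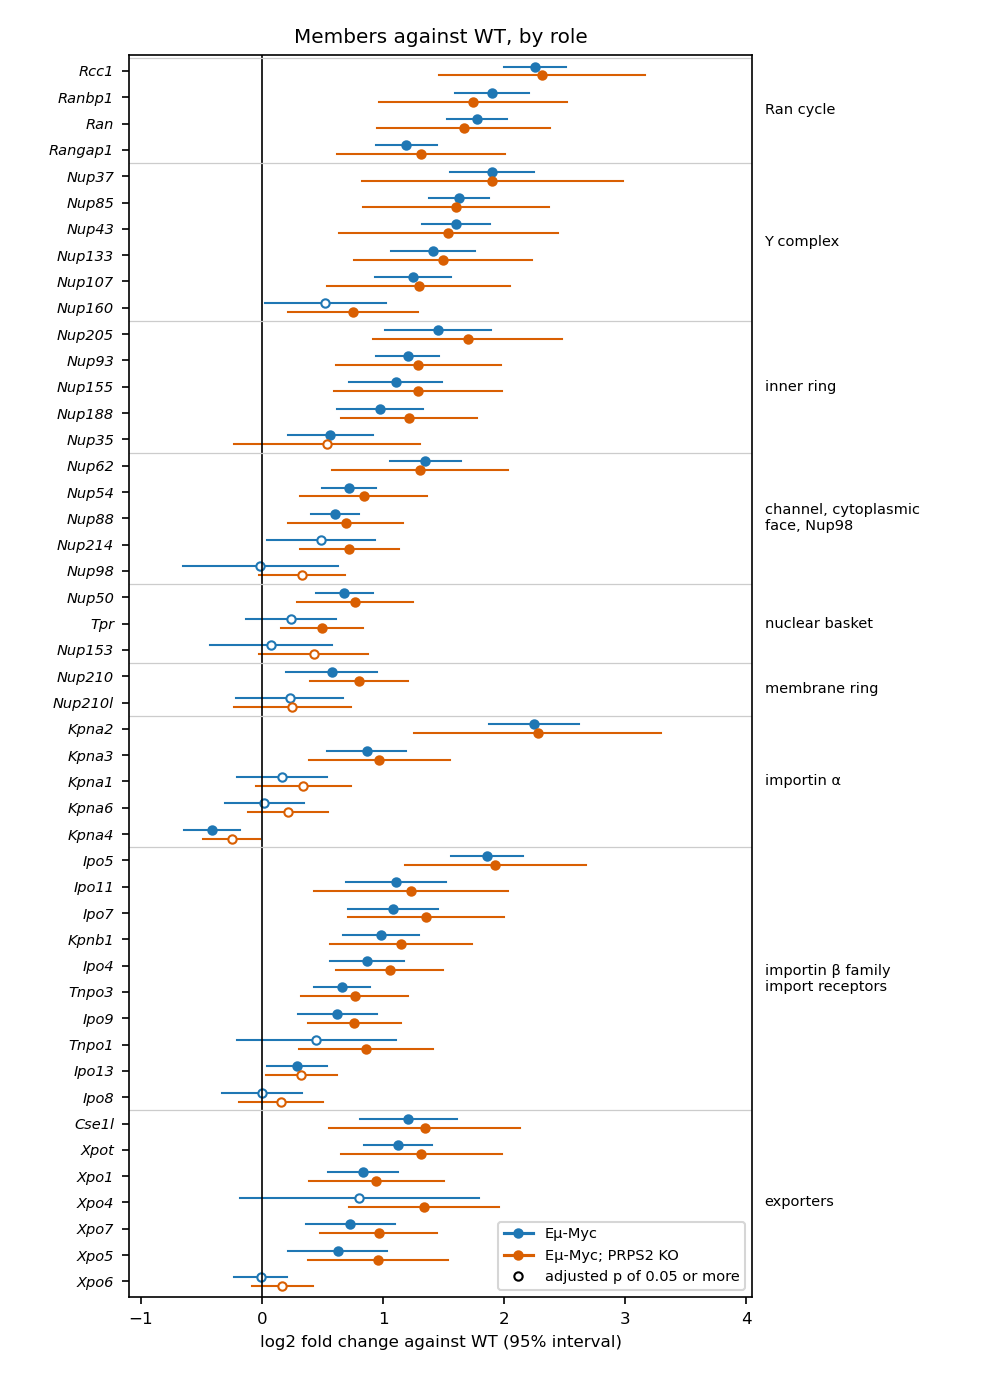
Log2 fold change against WT with its 95% interval (horizontal axis) for the 47 tested genes by role, in Eμ-Myc (blue) and Eμ-Myc; PRPS2 KO (orange); filled points have an adjusted p under 0.05. Both groups share the WT libraries, and the intervals of the knockout group are mostly the wider ones.

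Eμ-Myc library 2 was the lowest of its group in 37 of the 47 genes (78.7%), beside 34.1% of all genes, and it was low for genes of long exonic length in general. Each library's deviation was taken from the mean of the other libraries of its group. Library 2 therefore also enters the deviations of Eμ-Myc libraries 1, 3 and 4. Across 10583 genes, the deviation of library 2 from its group fell with the exonic length of the gene (Spearman's rho -0.57; rho in the other 11 libraries from -0.19 to 0.39), as a description across genes that share a library. Its median deviation on the log2 scale, against the mean of the other 3 Eμ-Myc libraries, was 0.33 in the shortest and -0.32 in the longest of 5 length bins, each of 2114 to 2119 genes. Over 46 of the set's genes rho was -0.68 (from -0.63 to 0.72 in the other libraries), and the largest shortfalls were those of Xpo4, Nup98 and Tnpo1, whose exonic lengths are 10731, 12602 and 11212 bases. Without library 2, 40 genes of the set were called, 39 of them higher, beside 54.7% of all genes called and 30.4% higher. Kpna1, Nup160, Nup214, Tnpo1, Tpr and Xpo4 then passed the test as higher, Ipo13 no longer did, and Nup98 stood at 0.30 (adjusted p 0.068). In library 2 the myeloid markers summed to 16717, beside 9803, 6468 and 5644 in Eμ-Myc libraries 1, 3 and 4. The T-cell markers summed to 123 there, beside 139, 136 and 94.2. The role of RNA quality, library preparation or non-B cells was not tested. Across the 47 genes, shorter ones had the larger log2 fold changes (rho -0.60, or -0.52 without library 2), beside a rho of -0.11 across all genes tested.

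**Figure D4:**
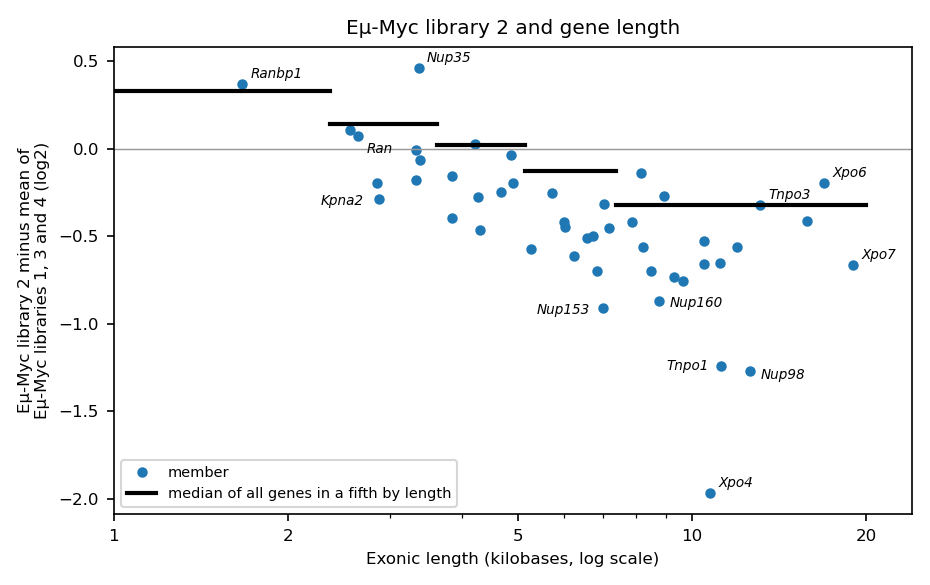
Deviation of Eμ-Myc library 2 from the mean of Eμ-Myc libraries 1, 3 and 4 (vertical axis, log2) against exonic length (horizontal axis, kilobases, log scale); points are the genes of the set and black bars the medians of all genes in 5 length bins, the outermost bars drawn only to the edges of the plot. The bars step down from 0.33 to -0.32, and Xpo4, Nup98 and Tnpo1 are the lowest points.

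Between Eμ-Myc and Eμ-Myc; PRPS2 KO no gene of the set was called, except in a fit that weighted the libraries. With each library weighted equally, none of the 47 genes passed the test by limma, and 0 of the 47 had an unadjusted p under 0.05. Over all 12551 genes tested 1 was called (0.00797%), Prps2 itself, and 121 (0.964%) had an unadjusted p under 0.05. No gene of the set had groups that did not overlap, beside 1.53% of all genes. The log2 fold change was above 0 for 40 of 47 genes with a median of 0.14, beside 43.3% of all genes and a median of -0.03. Both values of the set moved with single libraries. With knockout library 3 or 4 left out 25 genes were above 0, with medians of 0.00 and 0.01, and with knockout library 1 or 2 left out 46 were, with medians of 0.34 and 0.21. With Eμ-Myc library 1, 2, 3 or 4 left out the number was 38, 34, 43 or 41. A fit with library quality weights, which weighted knockout libraries 1 to 4 by 0.0817, 0.129, 3.20 and 7.76, called 41 of the 47 as higher (and 59.4% of all genes, 31.1% higher), with a median of 0.44, and turned Ran to 0.42 and Ranbp1 to 0.46. The smallest unadjusted p belonged to Xpo6, which held 156, 174, 180 and 188 in knockout libraries 1 to 4, a difference from Eμ-Myc of 0.18 with a 95% interval from -0.08 to 0.45. Kpna4 followed at 88.4, 97.6, 92.2 and 94.0, a difference of 0.16 with an interval from -0.08 to 0.41. Nup153 had 53.9, 69.9, 88.7 and 85.3, at 0.35 with an interval from -0.23 to 0.94. In the Ran cycle the differences were -0.11 for Ran (interval -0.85 to 0.62), -0.16 for Ranbp1 (-0.96 to 0.65), 0.12 for Rangap1 (-0.57 to 0.82) and 0.06 for Rcc1 (-0.81 to 0.94), intervals that leave room for changes in either direction.

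The 4 knockout libraries did not lie together. Libraries 3 and 4 were the most alike of all pairs among the 12 libraries (Pearson's r 0.997 over all genes). Over the set the SD of their log2 ratio was 0.06, beside 0.13 for knockout libraries 1 and 2 and 0.52 for knockout libraries 1 and 3. Ran stood at 267, 345, 684 and 682 in knockout libraries 1 to 4, Rcc1 at 178, 247, 550 and 567, Kpna2 at 85.2, 121, 326 and 315, and Ipo5 at 246, 333, 681 and 653. Libraries 3 and 4 exceeded all 4 Eμ-Myc libraries in 46 of the 47 genes each, where 37.5% and 36.8% of all genes did so, whereas library 1 was below all Eμ-Myc libraries in 27 of 47 and library 2 in 16 (all genes 37.4% and 30.2%). In 44 of the 47 genes (93.6%, all genes 39.5%) library 1 was the lowest of the 4, library 2 came next and libraries 3 and 4 were the highest. The median SD of the genes on the log2 scale was 0.51 among the knockout libraries, 0.25 among those of Eμ-Myc and 0.15 among those of WT, beside 0.39, 0.21 and 0.22 for all genes. The set's share of all coverage was 0.336%, 0.410%, 0.615% and 0.617% in knockout libraries 1 to 4.

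Other readouts also differed between the knockout libraries. Myc stood at 1099, 1718, 3017 and 3282 in libraries 1 to 4, beside 1559 to 2302 in Eμ-Myc, and the 10 cell-cycle genes summed to 1090, 1541, 3311 and 3267. The 9 T-cell markers summed to 567, 631, 15.1 and 13.1, the 6 NK-cell markers to 439, 327, 19.2 and 18.4 and the 8 myeloid markers to 15085, 11271, 2962 and 1238. The B-cell markers lay between 6182 and 6842 in all 4. Prps2 did not separate them, at 18.3, 17.0, 17.1 and 16.2. The part of non-B cells, of Myc level or of proliferation in the spread of the pore and transport genes was not tested.

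**Figure D5:**
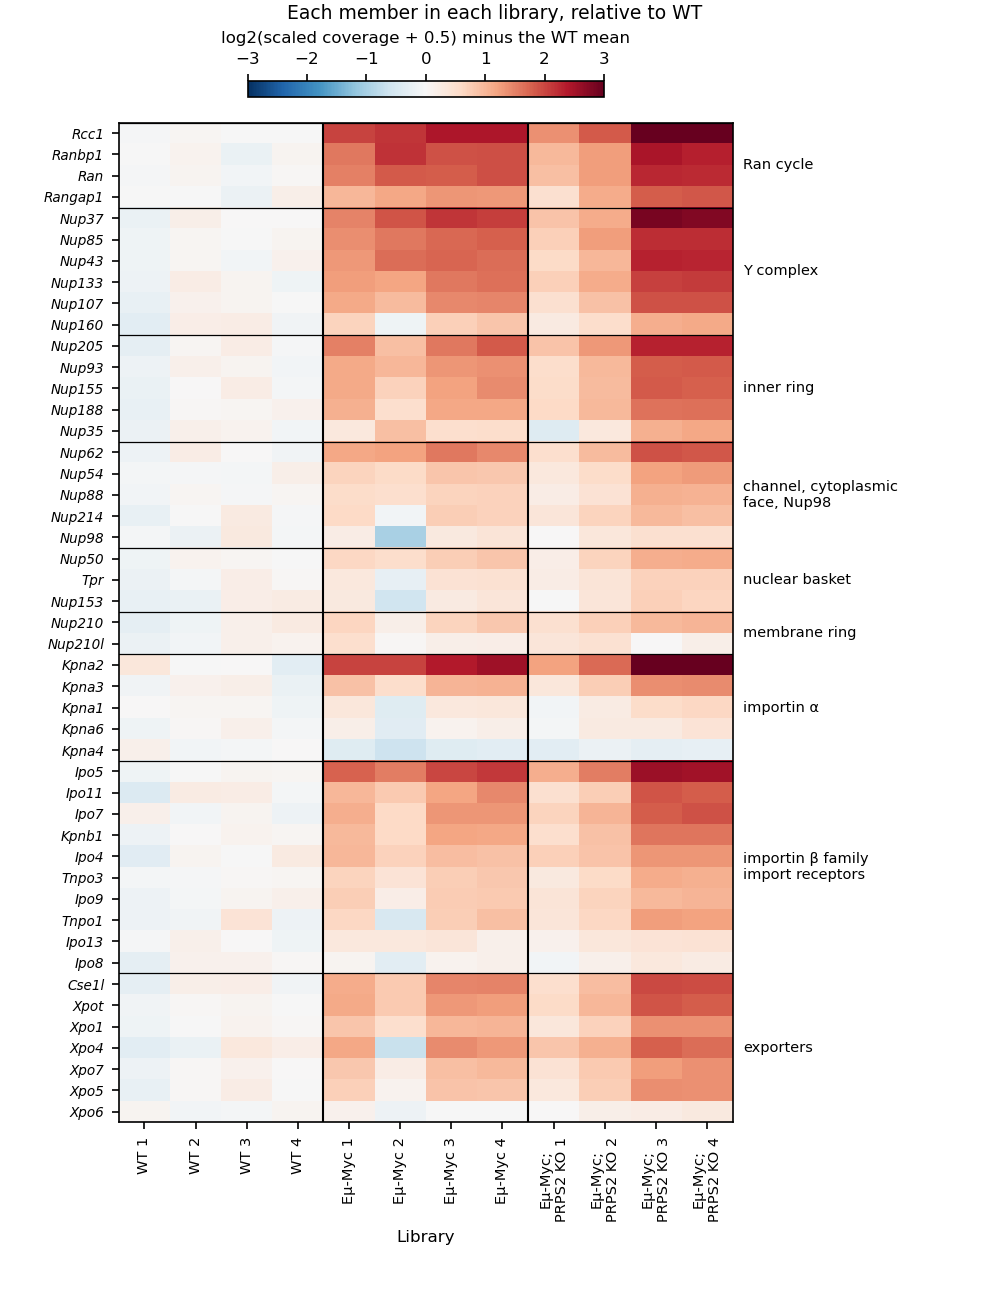
Log2(scaled coverage + 0.5) of the 47 tested genes (rows, by role) in each of the 12 libraries (columns), minus the mean of the 4 WT libraries; the colour scale runs from -3 to 3. Knockout libraries 3 and 4 are the darkest columns and library 1 the palest of its group, and Eμ-Myc library 2 is lower than its group for Nup98, Nup153, Tnpo1 and Xpo4.

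Against WT, the knockout libraries showed the pattern of increases at wider error. By limma 37 of the 47 genes rose and none fell, beside 19.7% of 12692 genes that rose, 9.6% that fell and 29.3% called either way. An unadjusted p under 0.05 was found for 39 of the 47, beside 50% of all genes. An increase of at least 1 was called for 23 of 47 (all genes 11.1%), all knockout libraries lay above all WT libraries for 36 of 47 and below them for 1 (all genes 22.2% and 14.9%, 37.1% in all), and the median log2 fold change was 0.97, beside -0.01 over all genes. These values share the WT libraries with those of Eμ-Myc against WT. The increases were 2.32 for Rcc1 (SE 0.37, adjusted p 0.011), 2.28 for Kpna2 (SE 0.44, adjusted p 0.016), 1.93 for Ipo5 (SE 0.33, adjusted p 0.011) and 1.66 for Ran (SE 0.31, adjusted p 0.014). In the Y complex 6 of 6 genes rose, in the inner ring 4 of 5, in the Ran cycle 4 of 4, among the importin β family import receptors 8 of 10 and among the exporters 6 of 7. The central channel, cytoplasmic face and Nup98 had 4 of 5, the nuclear basket 2 of 3, the membrane ring 1 of 2 and the importin α adaptors 2 of 5. Kpna4 stood at -0.25 (adjusted p 0.087), with all 4 knockout libraries below all WT libraries. By limma it was called lower with scaling by total coverage (-0.40, adjusted p 0.032) and with library quality weights (-0.20, adjusted p 0.012). Leaving out 1 library changed the count: with WT library 1, 2, 3 or 4 left out 7, 4, 4 or 13 of the 47 genes were called, beside 7.05%, 4.85%, 4.78% or 10% of all genes. With knockout library 1, 2, 3 or 4 left out it was 42, 37, 7 or 7, beside 53.2%, 33.1%, 5.62% or 5.11% of all genes. In each of these fits 46 of the 47 log2 fold changes were above 0, and the set's median ran from 0.83 to 1.17. Ipo4, Ipo5 and Rcc1 were the 3 genes called in every one of the 17 alternative settings of this comparison.

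Pore and transport genes outside the named series were also examined. Of 11 other nuclear pore genes, 9 rose in Eμ-Myc and none fell, with a median log2 fold change of 0.72, and of 22 other transport factors 14 rose and none fell (median 0.49), beside the 30.4% of all genes that rose. Against WT in the knockout group 6 of the 11 and 10 of the 22 rose, beside 19.7% of all genes, and none of either list was called against Eμ-Myc. Ndc1, a membrane protein that anchors the pore, went from 9.65, 7.22, 8.47 and 9.17 in WT to 33.4, 26.6, 38.1 and 40.0 in Eμ-Myc (1.93, SE 0.16, adjusted p 1.6e-05). Alyref, an mRNA export adaptor, rose by 1.68, Nutf2, the import factor of Ran itself, by 1.47, and Nxt1, the cofactor of the mRNA exporter, by 1.16. Ranbp17, an importin β family member, is among the 14 at 1.37 and among the 10 at 1.62, but it entered each test only through the group where it is high, so that its calls support nothing. Its WT values of 0.71, 0.09, 0.56 and 0.22 were all under the filter of 1, while its Eμ-Myc values of 1.51, 1.18, 2.26 and 2.14 and its knockout values of 1.12, 2.07, 2.78 and 3.11 were all above it. Rangrf showed the largest value, 2.89 (SE 0.20, limma adjusted p 5.8e-06), but 90.7% of its exonic bases lie opposite those of Slc25a35. The sources used here do not say whether counting used strand, so reads of that pair may not be told apart. Among the 48 genes, 11 share exonic bases with another listed gene, at most 3.89% of a gene's exonic length. With further genes of the GENCODE annotation, Ipo4 shares 55.3% of its exonic bases (Gm49378, same strand) and Ranbp1 16.9% (Gm49776, same strand). Among the other pore and transport genes, the largest shares after Rangrf were 48.8% for Nupl1 (Gm49336, same strand), 13.5% for Phax and 11.9% for Pom121 (both opposite strand). The annotation used for counting is not given in the sources used here, so the values of Ipo4, Ranbp1, Nupl1, Phax and Pom121 are uncertain to that extent.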

How the data were processed

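The deposited files give, per library, 1 value with 1 decimal for each of 24982 gene symbols. The authors' file naming calls it coverage, so the unit was taken as mean coverage per gene (signal). mm10, R 4.3.3 and DESeq are named in the submitters' processing notes. Aligner, counting, strand setting, treatment of reads with several matches, and annotation are not given in the sources used here, and the labels give no batch or date. The directional library kit is per the labels' protocols.

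Coverage is not a count, so no count model was used. Libraries were scaled by an unweighted trimmed mean of log ratios (30% of ratios, 5% of means trimmed at each end). A gene was tested where 4 or more of the 8 libraries reached a scaled coverage of 1, with limma 3.58.1 (R 4.3.3; trended, robust, two-sided) on log2(scaled coverage + 0.5), per comparison, with Benjamini-Hochberg adjustment over all genes and a threshold of 0.05. On simulated coverage with known changes in 200 genes, 64.5% were recovered with 8.51% false among calls for Eμ-Myc against WT, and 43.5% with 8.42% for the knockout against WT. The simulation tested 12687 and 12647 genes and drew the noise of each gene separately. In the real data 55.1% of genes were called for Eμ-Myc against WT, and the knockout libraries deviated together across genes. The simulated rates therefore need not hold for the real comparisons. P-values measure the spread between libraries labelled as biological replicates.

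Genes and lists were chosen with earlier results of these data known. Every gene is accounted for by role. Library values are given for the Ran cycle, for the largest increase and lowest log2 fold change in each other role in Eμ-Myc against WT, for called decreases and for the 3 smallest p of the knockout against Eμ-Myc; Xpo4's values, and those of the Ran cycle, Kpna2 and Ipo5 in the knockout libraries, were added after they were seen. Other pathway genes were named where called with a log2 fold change of 1 or more in size, at most 6; Ndc1, Alyref, Nutf2, Nxt1, Ranbp17 and Rangrf are the 6 largest. For the knockout against Eμ-Myc, libraries with the same number had deviations from their group means that correlated above 0.1 in every case (r 0.66, 0.19, 0.25 and 0.61), the criterion for pairs, although numbers 2 and 3 did not match their own number best; the values printed are from the fit without the replicate block, and the block was an alternative. Positions and exonic lengths are from GENCODE M21 (GRCm38). A listed B-cell marker is not reported here and was left out of the marker sums.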

Additional observations from a re-analysis of the deposited data

Results flagged for a closer look

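Among the 141 groups of 4 libraries examined (47 genes in 3 groups), 7 held a library whose gap to its nearest neighbour exceeded the critical share of the group's range in Dixon's test at 95%, beside 7.05 expected by chance at 1 in 20. In 4 of the 7 the library was Eμ-Myc library 2 and its value the lowest. Ipo9 had 145 there against 212 to 218 in the other 3, Kpna1 29.1 against 46.8 to 47.8, Kpna6 18.2 against 25.1 to 26.3, and Nup153 35.4 against 65.3 to 69.5. The other 3 were the highest value of a WT group: Tnpo1 at 91.1 in WT library 3 (others 61.0 to 63.1), Nup54 at 69.8 in WT library 4 (others 59.0 to 60.6) and Rcc1 at 71.3 in WT library 2 (others 66.9 to 67.6).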

How the results depend on the processing

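For Eμ-Myc against WT, 30 of the 35 calls of the set were kept in all 17 alternatives, and Ipo13, Ipo9, Nup210, Nup35 and Xpo5 lost theirs in at least 1; the set's count ran from 30 to 41 and the share of all genes called from 40% (no filter) to 69.2% (library quality weights, the fit with 41). Scaling by total coverage moved the median of all genes by -0.18 and the share of calls that were higher from 55.2% to 42%. It called 30 genes of the set, 29 of them higher, beside 57.4% of all genes called and 24.1% higher. The share of calls that were higher was 62% in one fit over all 12 libraries. For the knockout against WT the same scaling moved the median by -0.15, and the share of higher calls went from 67.2% to 57.7% in one fit over all 12 libraries, 50.2% with library quality weights, 76.8% with the replicate block and 55.7% to 94.9% with 1 library left out.

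For the knockout against Eμ-Myc, library quality weights gave 41 genes of the set, all higher, and 7459 of all genes, in a fit that weighted knockout libraries 1 to 4 by 0.0817, 0.129, 3.20 and 7.76; all other alternatives gave 0 and 1. For the knockout against WT, all genes called were 5975 in one fit over all 12 libraries, 10505 with weights and 1863 with the replicate block. With 1 library left out, all genes called ran from 600 to 6633 (main 3716) and the set's count from 4 to 42 (main 37). The cause of these changes was not tested.

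The replicate block was a pairing by number. In the knockout against Eμ-Myc it changed no call. In the comparisons with WT the libraries share only a number (r from -0.10 to 0.26 for Eμ-Myc, from -0.42 to 0.40 for the knockout, and not every library matched its own number best); there the block gave 34 and 32 genes of the set, and 7184 and 1863 of all genes.

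Near-0 values changed sign. In Eμ-Myc against WT, median of ratios scaling gave Ipo8 -0.0565 and Kpna6 -0.0394; total coverage scaling gave Ipo8 -0.18, Kpna1 -0.0164, Kpna6 -0.16 and Nup153 -0.11; weights gave Nup98 0.21 and Xpo6 0.0419. With 1 library left out, the ranges were Ipo8 -0.0892 to 0.11, Kpna6 -0.0287 to 0.14, Nup153 -0.0199 to 0.30, Nup98 -0.15 to 0.30 and Xpo6 -0.0615 to 0.0374. In the knockout against Eμ-Myc, weights gave Ran 0.42 and Ranbp1 0.46, and the ranges with 1 library left out were Ran -0.31 to 0.14, Ranbp1 -0.39 to 0.11, Rangap1 -0.057 to 0.40 and Rcc1 -0.18 to 0.37. The planned fit without knockout libraries 1 and 2 together was not run, since it would choose libraries by their measured values. Read depth is unknown, so no limit of detection is given.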
